A study of Mus musculus with 8 samples.

Results

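Cadherins, protocadherins and contactins are neuronal surface proteins through which cells recognise and hold one another. The set comprised every gene on the array whose name is Cdh with a number, begins with Pcdh, is Cntn1 to Cntn6, or is one of the numbered Cntnap genes. It held 83 genes, measured by 118 probes and 136 spots, of 34836 gene names and 55681 probes on the whole array. The rule uses names and no measured value, but it was written with earlier results of these data known. Of the 83 members, 68 passed the filter on dim probes and were tested, among 27413 genes tested in all.

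Classical cadherins are calcium-dependent adhesion molecules that bind mostly their own kind on a neighbouring cell and are linked to actin by catenins. Type I cadherins carry a conserved adhesive motif that type II cadherins lack, and in the developing brain combinations of both mark nuclei and their connections. Protocadherins fall into the alpha, beta and gamma gene clusters, whose single-cell promoter choice gives neurons distinct surface identities, and non-clustered delta protocadherins with more regional expression. Contactins are immunoglobulin-domain proteins anchored in the membrane by a lipid. They pair with contactin-associated proteins (the Caspr family, Cntnap genes), best known at the borders of the nodes of Ranvier in myelinated axons.

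RNA samples were profiled on 8 arrays: 3 of the dorsomedial hypothalamus (DMH), 3 of the ventromedial hypothalamus (VMH) and 2 of the arcuate nucleus (Arc). All groups shared the genotype, Nkx2-1-CreERT2 combined with a ROSA-loxSTOPlox-ZsGreen1 reporter, and all were female mice aged 2 months that had received tamoxifen. Green neurons were pooled after laser microdissection, so that each value is a mean over many cells whose Cre is driven by Nkx2-1, a transcription factor of the ventral hypothalamus. In pooled cells, fewer cells of a type and less RNA per cell cannot be told apart. The labels do not tie samples to animals, so that p-values reflect only how much these samples varied, and some may share animals.

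The arrays' 75th percentiles of processed signal lay between 1806 and 3042 units, and 72.3% to 78.7% of probes were well above background. Apart from these values, the small number of arrays limits the precision. Throughout, a level is the log2 processed signal minus the array's own 75th percentile, and levels of different genes were not set against each other because probes differ in brightness. The mean level of 5 DMH neuron markers was 1.68 to 1.92 in DMH arrays, against -3.99 to -3.78 in VMH and -4.11 to -3.00 in Arc. For 5 VMH neuron markers it was 2.30 to 2.44 in VMH arrays, against -1.34 to -1.23 in DMH and -1.32 to -1.09 in Arc, and for 6 Arc neuron markers 3.88 to 4.26 in Arc arrays, against 0.17 to 0.50 in DMH and -0.49 to 0.21 in VMH. Grp and Prdm13 of the DMH list passed the filter on dim probes only through DMH, and Fezf1 of the VMH list only through VMH. Their separation was favoured in advance and adds no support. Bsx of the DMH list was also high in Arc, with means of 1.15 in DMH and 0.49 in Arc. General neuron markers (7 genes) averaged 3.16 to 3.26 in DMH, 3.39 to 3.44 in VMH and 2.85 to 3.03 in Arc. Astrocyte markers averaged 1.33 to 1.52, 0.88 to 1.38 and 0.80 to 1.06 in the same order. Microglial markers averaged 0.51 to 0.64 in DMH, 0.24 to 0.54 in VMH and 0.99 to 1.03 in Arc. Tanycyte and ependymal markers averaged -2.10 to -1.99 in DMH, -1.89 to -1.40 in VMH and -1.35 to -1.20 in Arc. Endothelial and pericyte markers averaged -1.75 to -1.31, -1.59 to -1.38 and -1.22 to -1.09 in the same order. Members of a list did not all go the same way. Against the VMH-DMH mean, Arc was higher for 4 of 6 tanycyte and ependymal markers, 7 of 8 microglial and 5 of 6 endothelial and pericyte markers. It was higher for 2 of 7 general neuron markers and 1 of 9 astrocyte markers. The tanycyte marker Nes passed the filter on dim probes only through Arc, where it was high. Gja1 (astrocytes), Opalin (oligodendrocytes) and Tmem212 (ependyma) were well above background on no array.

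Most members were detected in all nuclei. The probes of 54 of the 83 genes were well above background on all 8 arrays, and those of 7 genes on none: Cdh1 (E-cadherin of epithelia), Cdh12, and the beta-cluster genes Pcdhb5, Pcdhb8, Pcdhb9, Pcdhb13 and Pcdhb19. All 7 alpha-cluster genes, all 6 gamma-cluster genes, all 6 contactins and all 7 contactin-associated proteins passed the filter, against 11 of 22 beta-cluster genes. A further 14 tested members were not well above background on all 8 arrays, among them Cntnap5a, whose 1 missing array was an outlier spot. No member spot was saturated.

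**Figure D1:**
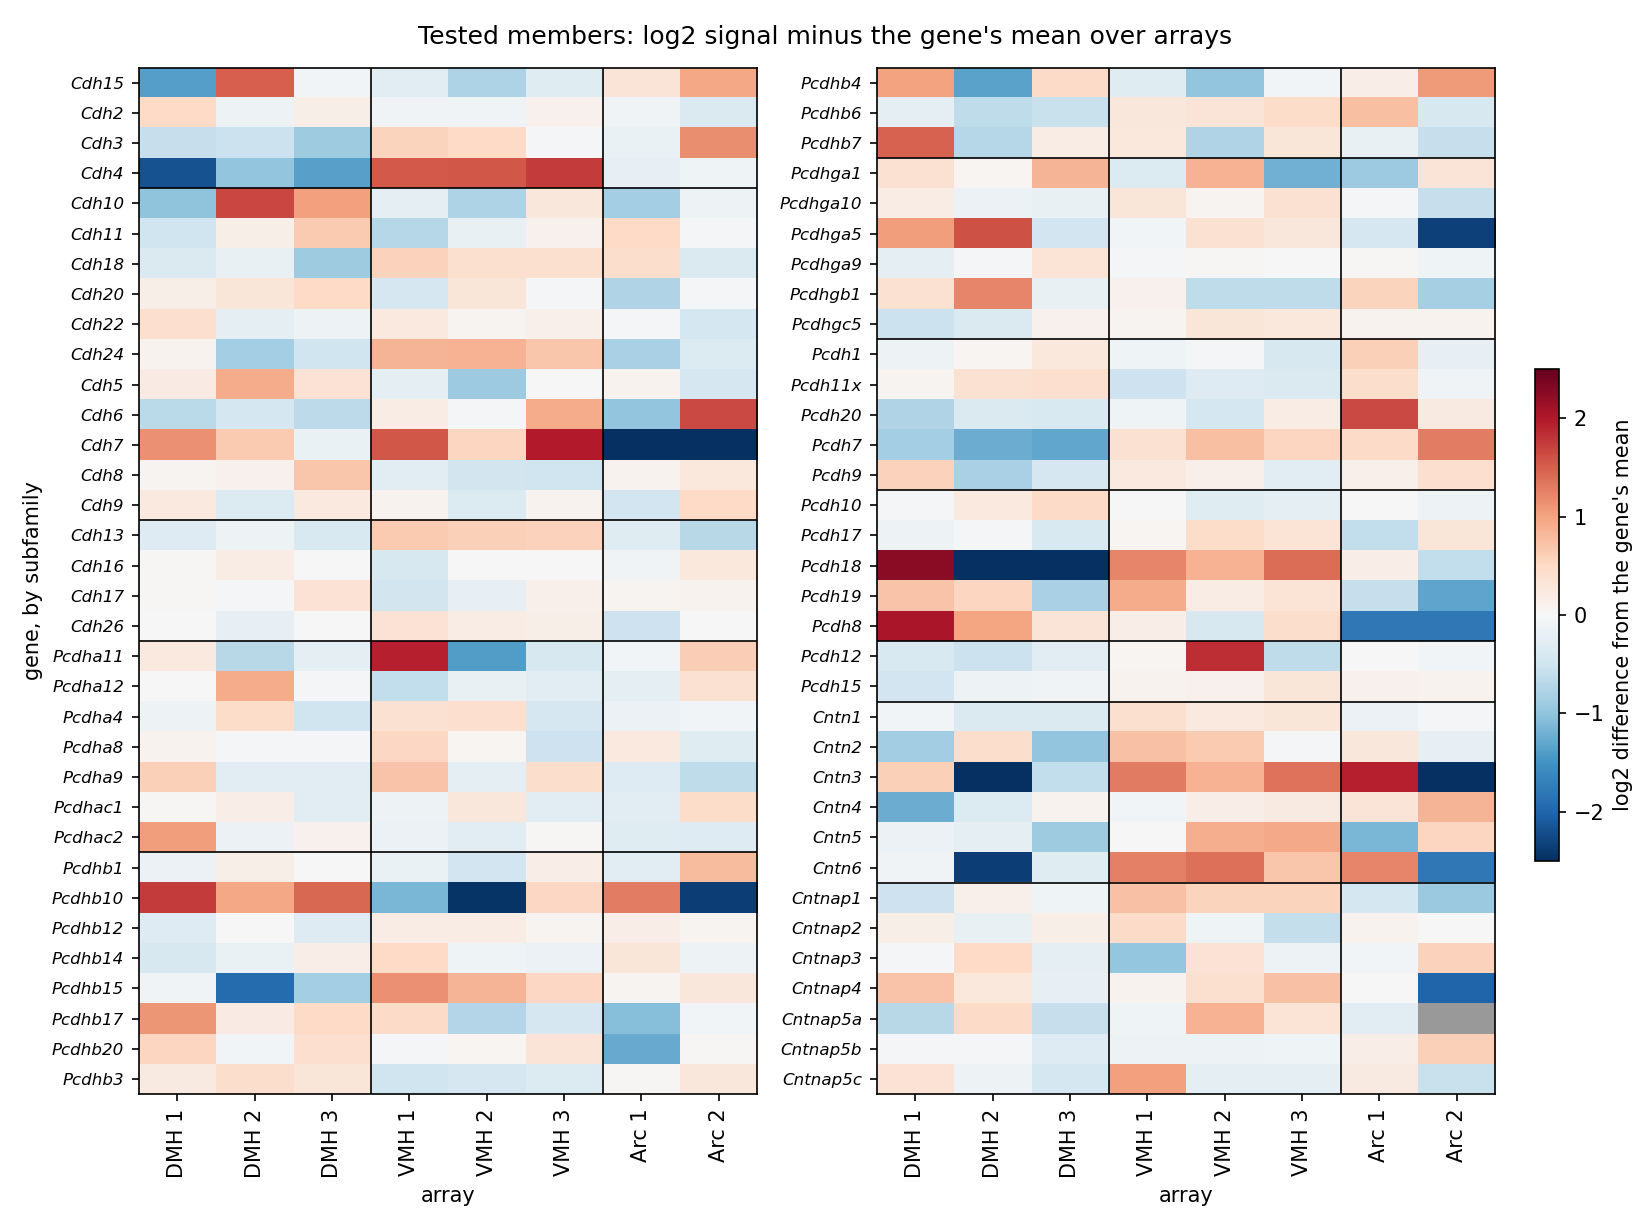
Levels of the 68 tested members on each of the 8 arrays (columns: DMH, VMH, Arc), as log2 signal minus the gene's own mean over arrays. Colours are clipped at 2.5 either way, lines separate subfamilies and nuclei, and grey is 1 Cntnap5a outlier spot left out. Cdh4, Cdh7 and Pcdh7 stand out as rows that change colour between nuclei, while rows such as Cntn3 and Pcdh18 vary as much within a nucleus.

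Few members separated the nuclei. In limma's model over all genes with Benjamini-Hochberg adjustment, 4 of 68 members (Cdh4, Cdh13, Cdh7 and Pcdh7) passed an adjusted p of 0.05 in at least 1 of 6 comparisons, or 5.88%, against 2.24% of all genes tested. Cdh7, 1 of these 4, passed the filter only through DMH and VMH, where it was high, so its calls add no support. In DMH against the Arc-VMH mean, 0 members were higher and 2 lower, with 0.368% of all genes called higher and 0.474% lower. For VMH against the Arc-DMH mean, 3 members were higher and 0 lower (0.872% and 0.471% of all genes). The Arc comparison with the VMH-DMH mean had 0 higher and 1 lower (0.193% and 0.42% of genes). Between pairs, 0 members were higher and 2 lower in DMH than in VMH (0.441% and 0.788%). Against Arc, DMH had 1 higher and 1 lower (0.244% and 0.182%), and VMH had 1 higher and 0 lower (0.66% and 0.317%).

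Arrays that separate completely were common among all genes in a design of this size. In the comparisons of DMH, VMH and Arc with the mean of the others, 7, 10 and 7 of the 68 members had arrays that did not overlap, beside 9.26%, 9.52% and 16.7% of all genes. The pairs DMH and VMH, DMH and Arc, and VMH and Arc had 25, 17 and 26 such members, beside 21.7%, 33.4% and 35% of all genes. The median absolute log2 difference of members was 0.40, 0.43 and 0.34 in the comparisons of DMH, VMH and Arc with the mean of the other nuclei. Over all genes it was 0.28, 0.24 and 0.31. Members also varied more within nuclei, with a median residual SD of 0.42 against 0.36 over all genes. By mean level, 21 of the tested members were highest in DMH, 30 in VMH and 17 in Arc. The share over all genes was not counted, so these numbers are no result about the members. They include ranges between nucleus means as small as 0.04. They also include genes that passed the filter only through their highest nucleus, such as Cntn3 and Pcdh18 (VMH) and Pcdhb10 (DMH).

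**Figure D2:**
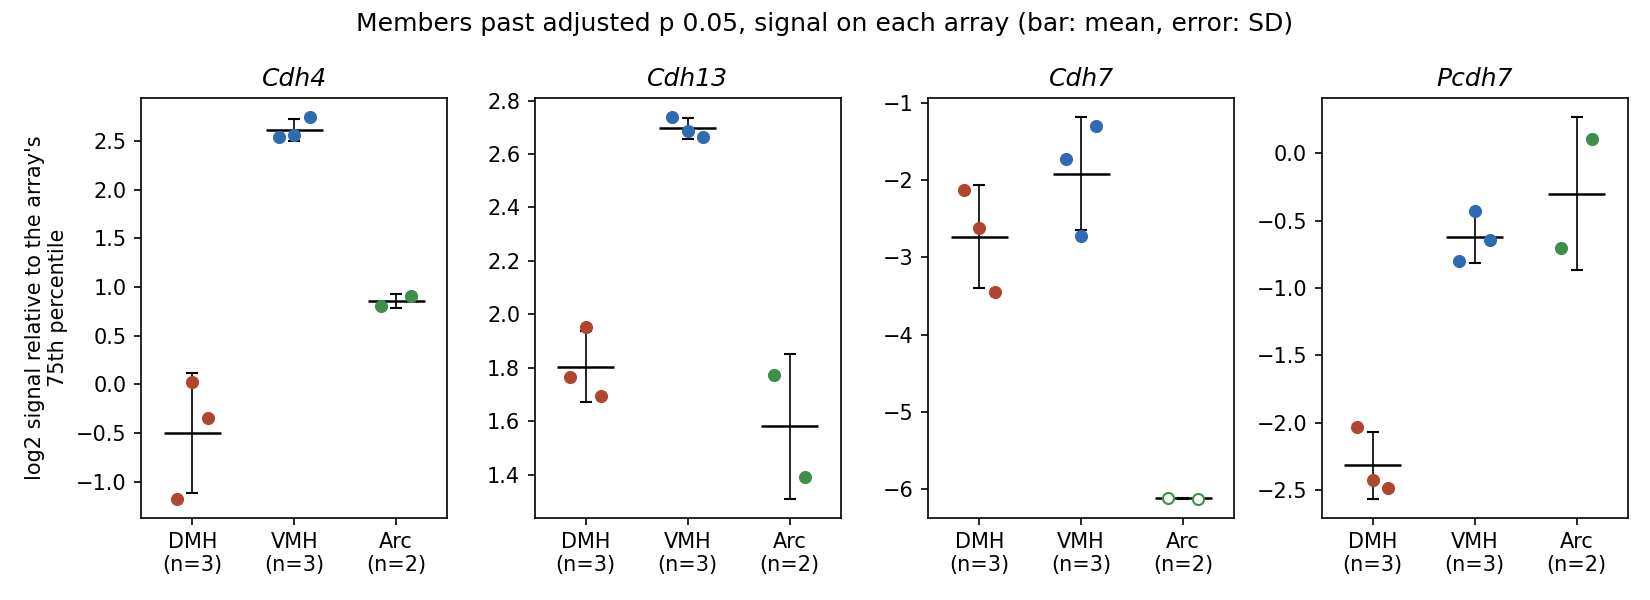
Levels of Cdh4, Cdh13, Cdh7 and Pcdh7 on each array (y axis: log2 signal relative to the array's 75th percentile, each panel on its own scale; points are arrays, bars means, error bars SD). Open points were below the background criterion on every array of that nucleus. The VMH arrays lie above all others for Cdh4 and Cdh13, the Arc arrays below all others for Cdh7, and the DMH arrays below all others for Pcdh7.

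The 4 called genes are read through 60-base probes. The first 30 bases of each are shown so that the transcript stretch behind each value can be found. Positions are those of the whole probe in mm9, all on the plus strand, and no exon or UTR annotation of that build was used here.
Cdh4 probe used in the test, chr2:179630828-179630887: ggcacagccctaacttgaatttcttaccac
Cdh4 upstream probe, chr2:179581965-179582024: agaatcctattgacctgtacatctacgtca
Cdh4 downstream probe, chr2:179633818-179633877: ttttttgtaatcgtcaacagcacaaatatt
Cdh13 probe used in the test, chr8:121837969-121838028: acatcacggacctcaaggtgcaggtgtgct
Cdh13 upstream probe, chr8:121492114-121492173: catcagcatggcagccctgaatatgctaca
Cdh7 probe used in the test, chr1:112035318-112035377: cacctggatctaactttcatggtaccctct
Pcdh7 probe used in the test, chr5:58120201-58120260: aagttccattgcatgagaccttttagttgt
Pcdh7 middle probe, chr5:58520529-58520588: aaacaggagaatataagccatctcctgtca
Pcdh7 downstream probe, chr5:58523420-58523479: taatatggggctgcttaaatatcactggac
The GC content of these 9 probes was 28.3% to 53.3% over all 60 bases. Over the probes standing for the 83 members it was 31.7% to 55.0%, with a median of 43.3%.

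Among the type I cadherins, Cdh4 (R-cadherin, a classical cadherin of brain and retina) was high in VMH and low in DMH. Its level was -1.17, 0.02 and -0.35 in DMH, 2.54, 2.56 and 2.75 in VMH, and 0.81 and 0.91 in Arc, and no 2 nuclei overlapped. Cdh4 fell by 3.12 ± 0.30 (SE, log2) in DMH against VMH, an 8.67-fold difference (adjusted p = 0.00528, limma). The VMH level exceeded the Arc-DMH mean by 2.44 ± 0.27 (adjusted p = 0.00905), and the DMH level was below the Arc-VMH mean by a log2 difference of -2.24 ± 0.27 (adjusted p = 0.0199). Arc lay between them without passing in either pair, with -1.36 ± 0.34 for DMH against Arc (adjusted p = 0.134) and 1.76 ± 0.34 for VMH against Arc (adjusted p = 0.0680). Both other Cdh4 probes ranked the nuclei the same way, with differences of -3.03 and -3.58 for DMH against VMH. The DMH-against-VMH difference passed in all 17 alternative analyses (adjusted p from 0.00075 to 0.0291). The other calls were lost without 1 array: VMH against the mean of the others without VMH replicate 3 (adjusted p = 0.0533), and DMH against the mean of the others without DMH replicate 3 (0.0710), VMH replicate 2 (0.0514) or VMH replicate 3 (0.0547). DMH against the mean of the others was also lost with the row of the slide as a block (-2.24, adjusted p = 0.0558).

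The VMH-to-Arc difference of Cdh4 depended on the analysis. It passed when all 3 probes were averaged (2.04, adjusted p = 0.0222, limma), with normexp background correction (1.71, adjusted p = 0.0221), with a trended variance prior (adjusted p = 0.0362) and without DMH replicate 1 (adjusted p = 0.0270).

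**Figure D3:**
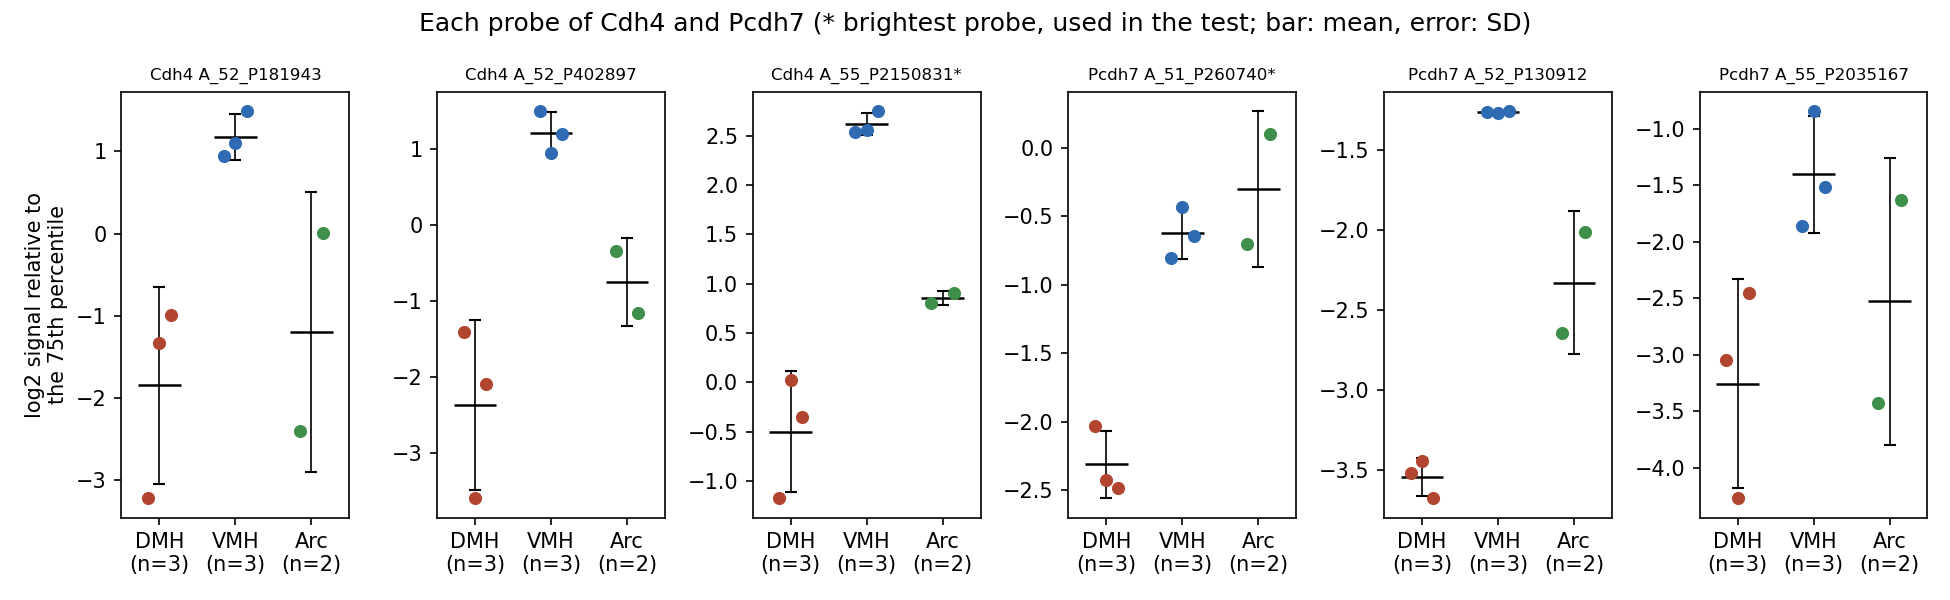
Each of the 3 probes of Cdh4 (left panels) and Pcdh7 (right panels) on each array, as log2 signal relative to the array's 75th percentile, with means and SD; an asterisk marks the probe used in the test, and each panel has its own scale. Every Cdh4 probe was highest in VMH and lowest in DMH on average, and every Pcdh7 probe was lowest in DMH.

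Cdh2 (N-cadherin, the main classical cadherin of neurons) did not pass in any comparison. Its levels were 4.43, 3.80 and 4.08 in DMH, 3.84, 3.85 and 4.03 in VMH, and 3.84 and 3.56 in Arc, and the nuclei overlapped. The largest of its pair differences was 0.41 ± 0.24 for DMH against Arc (adjusted p = 0.447, limma). The remaining tested type I members were Cdh3 (P-cadherin), below the background criterion on 3 of 8 arrays, and Cdh15 (M-cadherin of muscle), at -3.55 to -0.68 in DMH, -2.96 to -2.44 in VMH and -1.86 to -1.22 in Arc.

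Of the type II cadherins, Cdh7 was measured in DMH and VMH but not above background in Arc. Its level was -2.12, -2.62 and -3.45 in DMH, -1.72, -2.73 and -1.30 in VMH, and -6.12 on both Arc arrays, neither of which was well above background. Because the Arc values bound the level from above only, folds are lower limits, taken against the higher of the probe's own value and the lowest signal well above background on that array. VMH was at least 4.27-fold higher than Arc (means -1.92 and -6.12, adjusted p = 0.0130, limma), and DMH at least 2.43-fold higher than Arc (means -2.73 and -6.12, adjusted p = 0.0415). Arc was at least 3.22-fold lower than the VMH-DMH mean (adjusted p = 0.0169), and VMH at least 2.74-fold higher than the Arc-DMH mean (adjusted p = 0.0297). DMH and VMH overlapped, with a log2 difference of -0.81 ± 0.44 (adjusted p = 0.473).

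The Cdh7 calls were lost without single arrays, where leaving out an Arc array leaves 1, whose spread is then assumed to equal that of the other nuclei. The VMH-against-Arc call was lost without Arc replicate 1 (adjusted p = 0.0570, limma) or Arc replicate 2 (0.0540), and the Arc call also without DMH replicate 2 (0.0504), Arc replicate 1 (0.0658) or Arc replicate 2 (0.0701). The DMH-against-Arc call was lost without any of the 3 DMH arrays, either Arc array, VMH replicate 1 or VMH replicate 3, with adjusted p from 0.0506 to 0.119. VMH against the mean of the others was lost without DMH replicate 2 (0.0661), DMH replicate 3 (0.0509), VMH replicate 1 (0.135), VMH replicate 3 (0.113) or either Arc array (0.0711 and 0.0730). Normexp correction more than halved the fitted log2 differences, to 1.63 for VMH against Arc and -1.36 for Arc against the mean of the others, and ended the calls of DMH against Arc (1.09, adjusted p = 0.103) and of VMH against the mean of the others (1.08, adjusted p = 0.0529). With no filter on dim probes the same 2 calls were lost (adjusted p = 0.0716 and 0.0533). Cdh7 itself entered the test only through DMH and VMH, the nuclei where it was high, so a difference from Arc was favoured in advance. The adjusted p-values of Cdh7 describe the gene and add no support. The other Cdh7 probes did not pass the filter and give no second reading.

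Among the remaining type II members, Cdh24 had the smallest adjusted p after Cdh7 and was singled out after its values were seen. Its levels were -1.65, -2.59 and -2.24 in DMH, -0.89, -0.88 and -1.04 in VMH, and -2.54 and -2.07 in Arc. The VMH arrays lay above all others, by 1.30 ± 0.25 over the Arc-DMH mean (adjusted p = 0.0553, limma). Cdh5 (VE-cadherin, an endothelial cadherin) was well above background on the 3 DMH arrays, at -3.99, -3.26 and -3.84, and on none of the VMH or Arc arrays. It read -4.44, -5.10 and -4.21 in VMH, and -4.10 and -4.61 in Arc. The lowest signal well above background differed between arrays, from -4.84 on DMH replicate 1 to -3.97 on Arc replicate 1. The background flags of Cdh5 therefore do not compare its levels between nuclei.

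Cdh13 (T-cadherin) lacks the cytoplasmic tail of classical cadherins, is held in the membrane by a lipid anchor and binds adiponectin. It was higher in VMH. Levels were 1.77, 1.95 and 1.70 in DMH, 2.74, 2.69 and 2.66 in VMH, and 1.77 and 1.39 in Arc, and every VMH array lay above every other array. VMH exceeded the Arc-DMH mean by 1.00 ± 0.17, or 2.00-fold (adjusted p = 0.0371, limma), while the pair differences of -0.89 ± 0.19 for DMH against VMH (adjusted p = 0.0811) and 1.12 ± 0.21 for VMH against Arc (adjusted p = 0.0597) did not pass. The second Cdh13 probe showed 0.20 for VMH against the mean of the others, and averaging both probes gave 0.60 (adjusted p = 0.151). The call was lost without any 1 of the 8 arrays, with adjusted p from 0.0526 (without Arc replicate 1) to 0.157 (without VMH replicate 1). It was also lost when dim probes were kept (0.0566) or slide row was a block (0.0919).

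**Figure D4:**
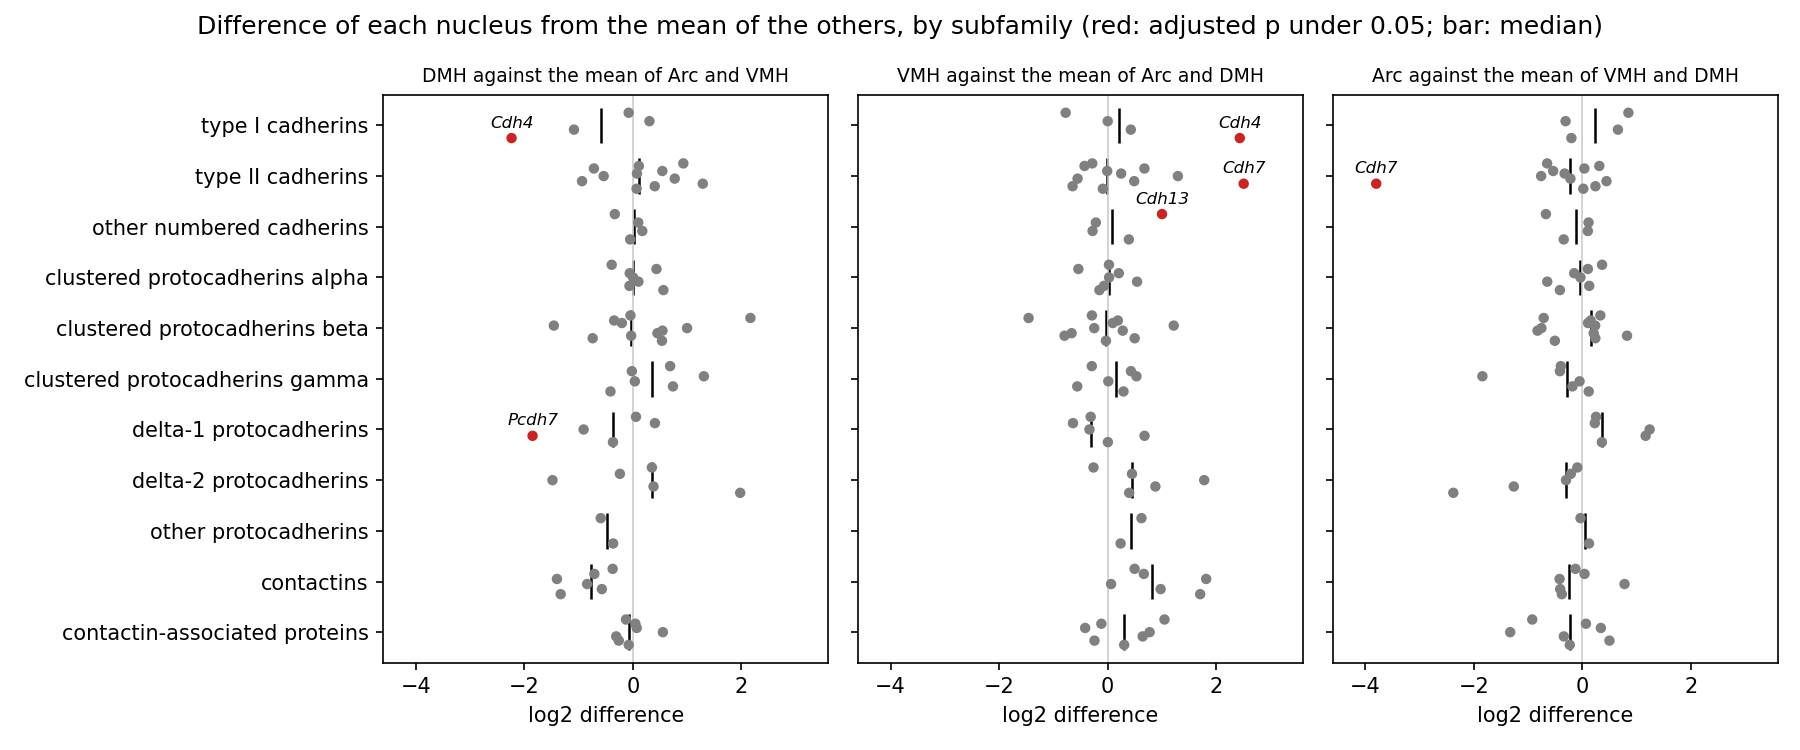
Log2 difference of each nucleus from the mean of the other nuclei (x axis) for every tested member, grouped by subfamily (rows); red points passed an adjusted p of 0.05, grey points did not, and black bars are medians. The contactin row lies wholly left of 0 in the DMH panel and wholly right of 0 in the VMH panel, with no red point.

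The delta-1 protocadherin Pcdh7, whose family binds protein phosphatase 1 through its cytoplasmic tail, was low in DMH. Its level was -2.03, -2.43 and -2.48 in DMH, -0.80, -0.43 and -0.64 in VMH, and -0.70 and 0.10 in Arc. All DMH arrays lay below all others, and VMH and Arc overlapped. DMH was below the Arc-VMH mean by a log2 difference of -1.85 ± 0.24, a 3.61-fold difference (adjusted p = 0.0212, limma). The pair differences were -1.69 ± 0.26 for DMH against VMH (adjusted p = 0.0314) and -2.01 ± 0.29 for DMH against Arc (adjusted p = 0.0418). Both other Pcdh7 probes were also lowest in DMH, by -1.75 and -1.29 against the mean of the others. They placed VMH above Arc, by 1.07 and 1.12, where the brightest probe gave -0.33 ± 0.29 (adjusted p = 0.673), so the order of VMH and Arc was not settled. Averaging the 3 probes left DMH against the mean of the others at -1.63 (adjusted p = 0.0468) and DMH against Arc at -1.32 (adjusted p = 0.148).

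The Pcdh7 calls were also lost without single arrays. For DMH against the mean of the others, these were DMH replicate 1 (adjusted p = 0.0633, limma), DMH replicate 2 (0.0940), DMH replicate 3 (0.0852), VMH replicate 2 (0.0561) and VMH replicate 3 (0.0585). DMH against VMH was lost without any of the 3 DMH or 3 VMH arrays (adjusted p from 0.0658 to 0.118). DMH against Arc was lost without any array other than Arc replicate 1 (0.0689 to 0.115). With no filter on dim probes both pair calls were lost, DMH against VMH at 0.0525 and DMH against Arc at 0.0716, and with slide row as a block DMH against Arc was lost (0.0647).

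The other delta-1 members include Pcdh9, at -1.25, -2.64 and -2.25 in DMH, -1.58, -1.71 and -2.10 in VMH, and -1.71 and -1.40 in Arc. Its nuclei overlapped on the probe used in the test, and the smallest of its adjusted p-values was 0.586 (limma). A further kept Pcdh9 probe read -6.74, -2.69 and -6.24 in DMH, -2.76, -5.92 and -2.95 in VMH, and -0.25 and -2.11 in Arc. Both Arc arrays of that probe lay above all others, but it passed the filter only through Arc and adds no support. The remaining kept Pcdh9 probe had overlapping nuclei. On the probes used in the test, the 5 delta-1 genes all had positive differences of Arc from the VMH-DMH mean. They ran from 0.23 (Pcdh11x) to 1.24 (Pcdh20), and none passed. A further probe of Pcdh1 and a further probe of Pcdh7 were negative, each at -0.20, while the other further kept probes of delta-1 genes were positive.

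The delta-2 protocadherin Pcdh8 (arcadlin, an activity-regulated protein that acts on N-cadherin at synapses) had the largest log2 difference among the members that did not pass. Its level was 1.23, 0.19 and -0.48 in DMH, -0.64, -1.21 and -0.38 in VMH, and -2.59 on both Arc arrays. Both Arc arrays lay below all others, and DMH and VMH overlapped. DMH exceeded Arc by 2.90 ± 0.48, or 7.47-fold (adjusted p = 0.0575, limma), and Arc was below the VMH-DMH mean by -2.38 ± 0.43 (adjusted p = 0.0682). The DMH-against-Arc difference passed under 4 of the alternatives: normexp correction (2.16, adjusted p = 0.0476), the filter requiring all arrays (0.0468), the mean of a gene's probes (0.0472) and the trended prior (0.0350).

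Pcdh10 (OL-protocadherin) and Pcdh19, a gene of X-linked epilepsy in humans, are further delta-2 genes. Pcdh10 was at 3.27, 3.57 and 3.81 in DMH, 3.31, 3.03 and 3.09 in VMH, and 3.32 and 3.19 in Arc, with overlapping nuclei and a smallest adjusted p of 0.400 (limma). Pcdh19 was at -1.51, -1.70 and -3.04 in DMH, -1.31, -2.05 and -1.88 in VMH, and -2.80 and -3.55 in Arc. The Pcdh19 difference of Arc from the VMH-DMH mean was -1.26 ± 0.44 (adjusted p = 0.235). Of the 2 other protocadherins, Pcdh15, a component of the hair-cell tip link, was at 1.49, 1.85 and 1.87 in DMH, 2.06, 2.08 and 2.28 in VMH, and 2.08 and 2.05 in Arc. On the probe used in the test, all DMH arrays of Pcdh15 were below all others, with a difference of -0.36 ± 0.17 (adjusted p = 0.342). On its further kept probes the DMH arrays overlapped the others. Those probes gave 0.17, 0.23 and -0.66 for DMH against Arc, where the probe used in the test gave -0.33. Pcdh12, an endothelial protocadherin, had 1 VMH array at -0.14 while its other 7 arrays lay between -2.63 and -1.94.

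None of the clustered protocadherins passed. The clusters account for 35 of the 83 members and lie together on chromosome 18, and 24 of them were tested. In the beta cluster Pcdhb3 was at -0.49, -0.29 and -0.42 in DMH, -1.22, -1.15 and -1.06 in VMH, and -0.69 and -0.43 in Arc. All VMH arrays of Pcdhb3 lay below all others, with a difference of -0.66 ± 0.16 from the Arc-DMH mean (adjusted p = 0.119, limma). Pcdhb15 was at -3.24, -5.08 and -4.01 in DMH, -2.02, -2.31 and -2.64 in VMH, and -3.08 and -2.87 in Arc, and only 1 of its DMH arrays was well above background. DMH was at least 2.37-fold below the Arc-VMH mean for Pcdhb15 (adjusted p = 0.161).

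In the alpha cluster the differences from the other nuclei lay between -0.39 and 0.56 for DMH, -0.54 and 0.54 for VMH, and -0.64 and 0.37 for Arc. Pcdha9 was at 0.56, -0.33 and -0.29 in DMH, 0.69, -0.26 and 0.40 in VMH, and -0.36 and -0.68 in Arc (Arc against the VMH-DMH mean -0.64 ± 0.34, adjusted p = 0.398, limma). Pcdha12 had a VMH difference of -0.54 ± 0.29 from the Arc-DMH mean (adjusted p = 0.484). In the gamma cluster Pcdhga5 was at 0.10, 0.64 and -1.42 in DMH, -1.02, -0.56 and -0.65 in VMH, and -1.36 and -3.29 in Arc (DMH against Arc 2.10 ± 0.70, adjusted p = 0.206). Pcdhga10 differed by 0.56 ± 0.25 for VMH against Arc (adjusted p = 0.362).

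Transcripts of the alpha and gamma clusters join a variable first exon to shared downstream exons, so probe position bears on what is read. Both Pcdhga9 probes lie 20480 and 22133 bases beyond the most downstream probe of any other gamma gene, and the probe standing for Pcdhac2 lies 41548 bases from the other Pcdhac2 probe. These genes were picked out after their values were seen. Pcdhga9 was level across nuclei, at 4.42, 4.64 and 5.01 in DMH, 4.64, 4.71 and 4.68 in VMH, and 4.71 and 4.56 in Arc. Whether its probes read several gamma transcripts was not tested. Genes of the beta cluster are close copies of one another, and their probes may share signal.

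None of the contactins passed. On the probes used in the test, all 6 had a negative difference for DMH against the Arc-VMH mean, from -1.40 (Cntn3) to -0.37 (Cntn1), with a median of -0.78 against -0.04 over all genes. All 6 were positive for VMH against the Arc-DMH mean, from 0.06 (Cntn4) to 1.82 (Cntn3), with a median of 0.82 against 0.01 over all genes. These comparisons share arrays, and 0 of 6 were called in either at the backgrounds given above, with smallest adjusted p-values of 0.253 and 0.234 (limma). Cntn3 entered the test only through VMH, the nucleus where it was high, so its signs add no support. Its differences also rest on readings not well above background, such as -6.40 in DMH replicate 2 and -6.10 in Arc replicate 2. A further Cntn4 probe was positive for DMH, at 0.22. The distant cadherin relatives (12 tested) were also mostly negative for DMH (9 of 12, median -0.20) and positive for VMH (10 of 12, median 0.23). General neuron markers were positive for VMH in 7 of 7 (median 0.14), and oligodendrocyte markers in 7 of 8 (median 0.36), with mean levels of -0.28 to 0.21 in DMH, -0.49 to 0.48 in VMH and -0.74 to -0.24 in Arc. Their part in the contactin differences was not tested.

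**Figure D5:**
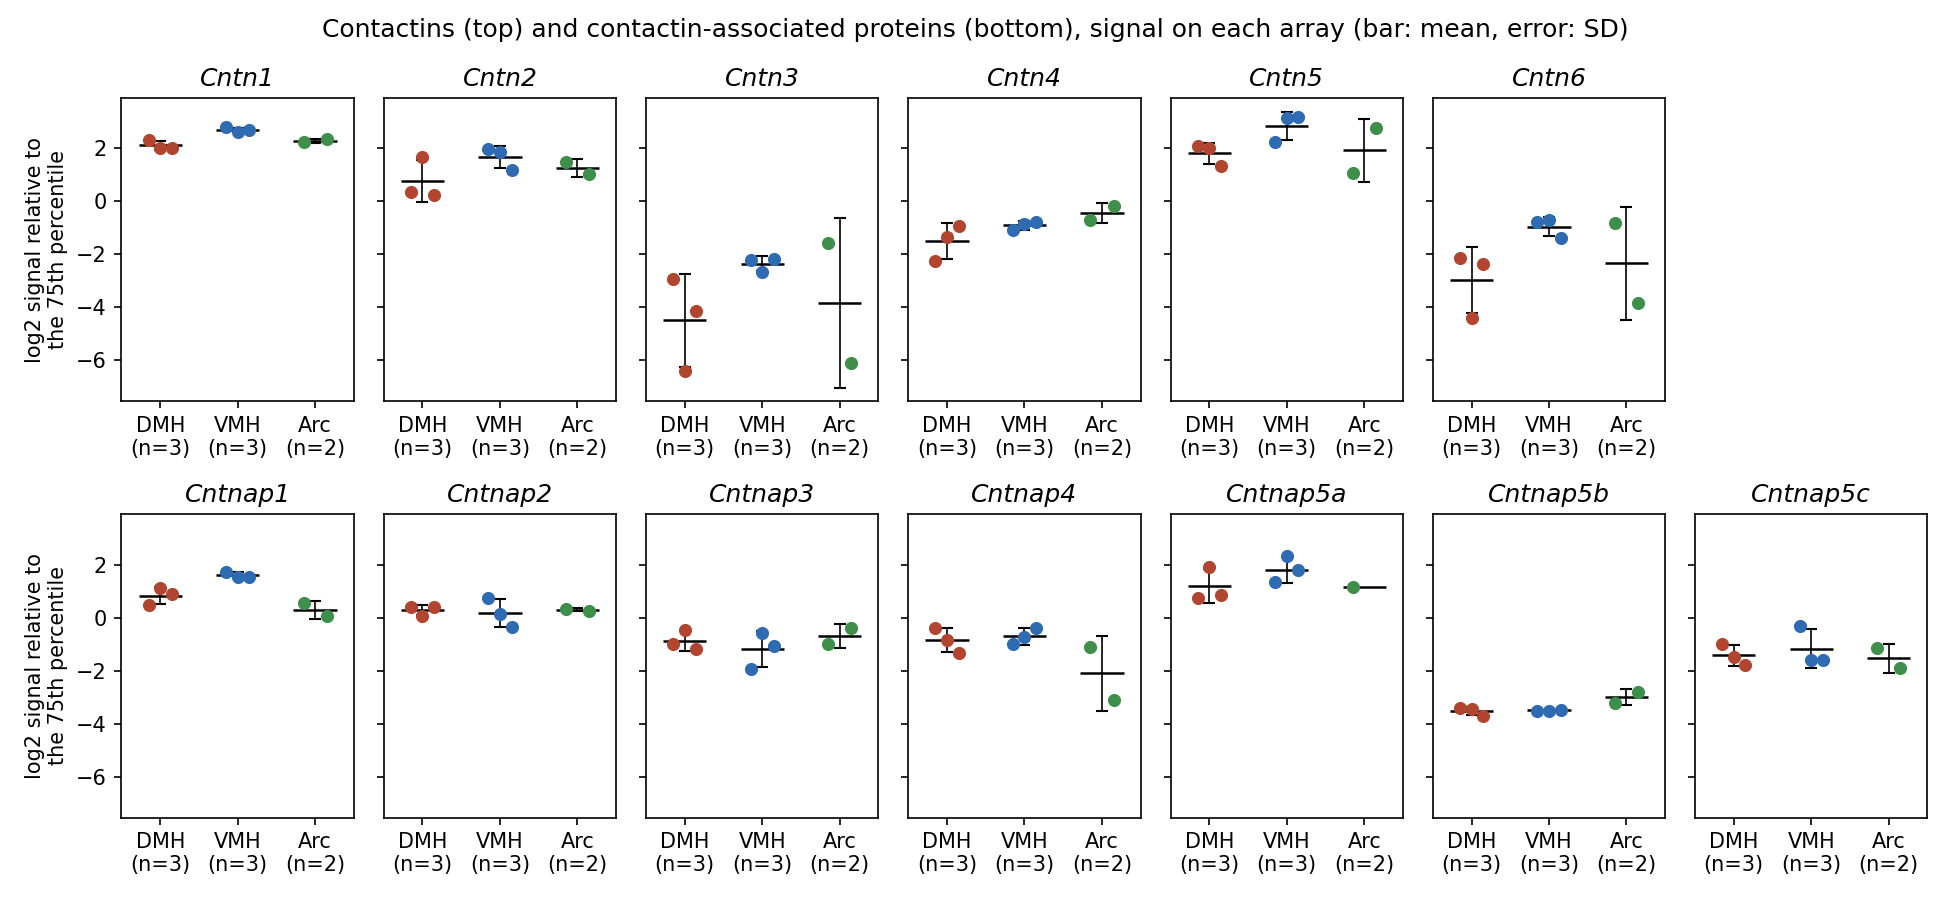
Levels of the 6 contactins (top) and 7 contactin-associated proteins (bottom) on each array, as log2 signal relative to the array's 75th percentile (points are arrays, bars means, error bars SD; Cntnap5a has 1 Arc array). Cntn1 and Cntnap1 have their 3 VMH arrays above all others, whereas Cntn3 and Cntn6 spread widely within DMH and Arc.

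Cntn1 (the contactin that joins Caspr at the paranode) was at 2.32, 2.02 and 2.03 in DMH, 2.79, 2.63 and 2.69 in VMH, and 2.23 and 2.34 in Arc. All VMH arrays of Cntn1 lay above all others, by 0.50 ± 0.16 over the Arc-DMH mean (adjusted p = 0.234, limma). Cntn2 (TAG-1, the contactin of the juxtaparanode) was at 0.36, 1.67 and 0.25 in DMH, 1.96, 1.88 and 1.19 in VMH, and 1.50 and 1.02 in Arc, with overlapping nuclei. Its VMH difference was 0.67 ± 0.38 (adjusted p = 0.512). Cntn4 had its Arc arrays highest on the brightest probe, at -2.25, -1.35 and -0.93 in DMH, -1.09, -0.84 and -0.79 in VMH, and -0.69 and -0.16 in Arc. Another Cntn4 probe read -2.24, -2.01 and -1.72 in DMH, -0.27, 0.06 and -0.17 in VMH, and -1.47 and -1.26 in Arc, with VMH highest, so the order of VMH and Arc turned with the probe. Cntn3 was well above background on 1 of 3 DMH, 3 of 3 VMH and 1 of 2 Arc arrays.

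Among the contactin-associated proteins Cntnap1 (Caspr, the paranodal partner of Cntn1) came nearest to the threshold. It was at 0.47, 1.11 and 0.88 in DMH, 1.72, 1.54 and 1.55 in VMH, and 0.53 and 0.05 in Arc, and all VMH arrays lay above all others. VMH exceeded the Arc-DMH mean by 1.05 ± 0.21, or 2.07-fold (adjusted p = 0.0680, limma), which passed with normexp correction (0.95, adjusted p = 0.0327) and with the trended prior (adjusted p = 0.0352). Cntnap2 (Caspr2, linked to human language and autism disorders) was at 0.39, 0.07 and 0.39 in DMH, 0.73, 0.15 and -0.35 in VMH, and 0.34 and 0.26 in Arc. The smallest of its adjusted p-values, on that probe, was 0.905. Its further kept probes gave 1.17 and -0.14 for DMH against Arc, where the probe used in the test gave -0.02. Cntnap4 was at -0.40, -0.84 and -1.32 in DMH, -1.01, -0.72 and -0.38 in VMH, and -1.11 and -3.11 in Arc (Arc against the VMH-DMH mean -1.33 ± 0.50, adjusted p = 0.263). The Cntnap5a fit left out Arc replicate 2, an outlier spot.

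Genes that work with these proteins were also read, from lists of known partners. None of 11 tested cadherin partners (catenins and linked proteins) and none of 12 more distant cadherin relatives (Celsr, Fat, calsyntenin and desmosomal genes) passed in limma's model, at raw p under 0.05 for 1 to 3 partners and 2 to 5 relatives per comparison. Over all genes, raw p was under 0.05 for 16.3%, 13.1% and 15.7% in the comparisons of DMH, VMH and Arc with the mean of the others, and for 13.2%, 16.6% and 14.2% in DMH against VMH, DMH against Arc and VMH against Arc. Of 8 tested protocadherin partners 1 passed in at least 1 comparison, beside 2.24% of all genes. It was Ptk2b (Pyk2, a kinase that clustered protocadherins hold in check). Ptk2b was at 2.40, 2.74 and 2.60 in DMH, 2.72, 2.96 and 2.82 in VMH, and 0.70 and 0.87 in Arc. Arc lay below the VMH-DMH mean by -1.92 ± 0.19, a 3.79-fold difference (adjusted p = 0.00808), and VMH was above Arc by 2.05 ± 0.21 (adjusted p = 0.00855). Both passed in all 17 alternative analyses. DMH was above Arc by 1.80 ± 0.21 (adjusted p = 0.0215). That call was lost without DMH replicate 2 (0.0707), DMH replicate 3 (0.0614), VMH replicate 3 (0.0560) or either Arc array. It was also lost with slide row (0.0535) or replicate number as a block.

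Of 15 tested contactin partners 2 passed in at least 1 comparison, beside 2.24% of all genes, both parts of the Kv1 potassium channel that Cntn2 and Caspr2 assemble beside the node. Kcna1 (the pore subunit Kv1.1) was well above background only in VMH, where it read -0.70, -1.17 and 0.05, against -6.93, -6.57 and -6.46 in DMH and -6.24 and -6.21 in Arc. Kcna1 thus entered the test only through VMH, the nucleus where it was high, and was favoured in advance to differ. It was at least 15.1-fold above DMH and at least 10.6-fold above Arc (adjusted p = 0.000551 and 0.00124, limma), values that describe the gene and add no support. Kcnab2 (a Kv1 beta subunit) was at 0.07, 0.98 and 1.23 in DMH, 2.76, 3.01 and 2.46 in VMH, and 1.28 and 1.02 in Arc. All VMH arrays of Kcnab2 lay above all others, by 1.79 ± 0.29 over the Arc-DMH mean (adjusted p = 0.0331). That call was lost without DMH replicate 2 (0.0643), VMH replicate 1 (0.137), VMH replicate 2 (0.132), VMH replicate 3 (0.0942) or either Arc array. It was also lost when dim probes were kept (0.0588) and when slide row (0.0527) or replicate number was a block.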

How the data were processed

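RNA of pooled ZsGreen-marked neurons from 3 DMH, 3 VMH and 2 Arc samples was labelled with Cy5, per the labels. The deposited values used are red-channel spot intensities, which the authors obtained with Agilent Feature Extraction (version 11.5.1.1) after background subtraction and detrending, per the file headers. They are unscaled between arrays. Well-above-background, outlier and saturation flags are also deposited. Probe positions are mm9, per the file headers. All 8 arrays were on 1 slide and 1 scan.

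Log2 intensity minus the array's 75th percentile of non-control spots was taken, outlier spots were dropped and spots of a probe averaged. A probe was kept if all arrays of some nucleus had it well above background (41465 probes), and the brightest stood for its gene. All 83 member names matched RefSeq symbols (GRCm38.p6, names only). Nucleus means were estimated jointly from the 8 arrays with limma 3.58.1 (in R 4.3.3), leaving 5 residual degrees of freedom, with Benjamini-Hochberg adjustment per comparison and a threshold of 0.05. In simulated data over 27413 genes, 35 of 50 genes changed by 2 (log2) were recovered for DMH against the Arc-VMH mean. For VMH against the Arc-DMH mean 31 were recovered, and for Arc against the VMH-DMH mean 22. Of 50 genes changed by 1, 13, 6 and 6 were recovered in the same order, and of 50 changed by 0.5, 0 in each. Smaller differences were therefore mostly missed.

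Named genes were the members past the threshold, the 2 with the smallest p in each subfamily without one, 8 preset genes and partner genes past the threshold. Members, lists and tests were chosen with earlier results of these data known. The alternatives were other background corrections, scalings, filters, probe rules, variance priors, blocks, and leaving out each array.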

Additional observations from a re-analysis of the deposited data

How the results depend on the processing

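Members called in the main analysis numbered 2 for DMH against the Arc-VMH mean, 3 for VMH against the Arc-DMH mean, 1 for Arc against the VMH-DMH mean, and between pairs 2 (DMH and VMH), 2 (DMH and Arc) and 1 (VMH and Arc). In that order, with each replicate number as a replicate block the counts were 0, 1, 0, 1, 0 and 0: every call of Cdh7, Cdh13 and Pcdh7 was lost, with adjusted p from 0.0651 to 0.113, Cdh4 was lost for DMH against the Arc-VMH mean (0.0609) and kept for VMH against the Arc-DMH mean (0.0390) and DMH against VMH (0.0250). With the row of the slide as a block, DMH against the Arc-VMH mean and DMH against Arc each had 1, and VMH against the Arc-DMH mean had 2. With no filter on dim probes, VMH against the Arc-DMH mean had 1, DMH against VMH had 1 and DMH against Arc had 0. Requiring all arrays to be well above background gave 0 for both Arc against the VMH-DMH mean and VMH against Arc, since Cdh7 was then not tested. The trended and robust prior gave 2 for Arc against the VMH-DMH mean and 4 for VMH against Arc, where normexp correction also gave 4 and the mean of a gene's probes 2. Leaving out 1 array, with a lone Arc array assumed to vary like the other nuclei, gave 0 to 2, 0 to 4, 0 to 1, 1 to 2, 0 to 1 and 0 to 2 members. Over all genes, the counts were 231, 368, 168, 337, 117 and 268 in the main analysis and lay between 25 and 313, 95 and 528, 40 and 283, 108 and 494, 32 and 231, and 86 and 403 over the 17 alternatives. The 11 called member differences were tried 183 times in all; 114 kept the call, 69 lost it and 0 reversed. The causes of the other changes were not tested.

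Replicate numbers were shared between nuclei, but the labels do not say that a number marks a shared animal or day. Same-numbered samples had correlations of 0.07 to 0.18 between their deviations from the nucleus means, positive in each pair, and every sample correlated best with its own number, which is a hint from the data and not from the design. A further kept probe of a member pointed the opposite way from the brightest for 7 of 26 probes in DMH and 8 of 26 in VMH against the mean of the others, and for 14 of 26 in Arc. Where a probe is near background, a log2 difference depends on the background correction.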
